A study of Sus scrofa with 3 samples.

Results

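The genes described here encode the semaphorins and their plexin receptors, the ephrins and their Eph receptors, the Slits and their Robo receptors, and the netrins and their UNC5 receptors. They were taken by symbol alone, and 66 of the 26466 gene symbols in the count files matched, 35 of them ligands and 31 receptors. The data were 3 pig RNA libraries, 1 each from peripheral blood mononuclear cells (PBMC), from mesenchymal stem cells derived from bone marrow (BM-MSC) and from cells labelled as bone marrow attached cells (BMAC). The 3 populations were set against each other in pairs. The labels give no treatment, time, strain, sex or age, leave out the isolation and any culture of the cells, and name no animal. Each library was made by QuantSeq, which reads a fragment near the 3' end of polyadenylated transcripts.

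Guidance cues were first studied as signals that steer growing axons, and the same proteins steer migrating cells and vessels and regulate adhesion between cells. Semaphorins act through plexins, with neuropilins as co-receptors for the secreted kind. Ephrins are held on the cell surface and bind Eph receptor kinases on a touching cell, so that both cells can receive a signal. Slits are large secreted proteins bound by Robos, and netrins are laminin-related secreted proteins bound by DCC, neogenin and UNC5 receptors. In blood cells some semaphorins and plexins serve in contacts between immune cells, and in marrow stroma Eph-ephrin contacts and Slits are known from studies of bone cells and of the blood stem cell niche.

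With 1 library per population there was no replicate check of any difference, and no test between populations was possible. Levels are counts per 1000000 counts of the library (CPM), and each range in parentheses is a 95% interval that covers only counting error (exact Poisson for a level, exact conditional Clopper-Pearson for a fold). A gene was counted as higher or lower, or past the 4-fold rule, when log2((CPM + 1)/(CPM + 1)) reached 2 in size with 10 CPM or more, and 10 counts or more, on the higher side. A fold is the ratio of CPM with nothing added, and a fold against 0 counts is a lower bound with 3 counts in the empty library. Values of a gene were set between libraries. Sums and shares over several genes are of counts as they stand, not scaled by transcript length, and do not rank the amounts of different transcripts. These are bulk libraries, in which fewer cells of a type and less RNA per cell cannot be told apart.

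Total counts ran from 15122997 to 17069344. Ribosomal RNA rows took 5.29% of the counts of PBMC, 15.5% of BM-MSC and 11.4% of BMAC, and totals without them are among the alternatives tried. The libraries carried the markers of their labels. In PBMC all 10 leukocyte markers reached 10 CPM and their levels summed to 4471 CPM, against 7.09 CPM for BM-MSC and 21.2 for BMAC. CD14 made up 17.3 CPM of the BMAC sum, while SLA-DRA, CD79B and MS4A1 stood at 0 there. All 8 stromal markers reached 10 CPM in both marrow libraries, with sums of 13316 and 11075 CPM against 54.3 CPM in PBMC. The 8 endothelial markers summed to 166 CPM in PBMC against 24.5 and 35.5 in the marrow libraries, of which PECAM1, which leukocytes and platelets also carry, held 145, 15.2 and 27.7 CPM. CDH5 and KDR of that list were below 1 CPM in each library and CLDN5 was at 0. The Schwann and neural markers summed to 22.2, 123 and 3.90 CPM, with SOX10 at 0 throughout and NCAM1 at 6.02, 119 and 1.45 CPM.

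Of the 66 guidance genes, 30 reached 10 CPM in at least 1 library, 36 stayed below it in all 3, and SEMA3G, PLXNB3 and NTN3 had no count anywhere. PBMC held 16 members at 10 CPM or more (24.2%, against 35.2% of all genes), BM-MSC 25 (37.9% against 35.4%) and BMAC 24 (36.4% against 36.0%). Summed over all members the level was 1315 CPM in PBMC (1297 to 1333), 2378 for BM-MSC (2355 to 2401) and 4242 for BMAC (4209 to 4275). Single genes weighed heavily in these sums. SEMA3C and SLIT2 held 1456 and 997 CPM of the BMAC sum and 715 and 248 CPM of the BM-MSC sum. In PBMC they held 6.80 and 6.47 CPM, and the member with most counts there was EPHB6, at 348 CPM. The families were not highest in the same library. The membrane semaphorins summed to 331 CPM in PBMC and to 57.4 and 54.1 in the marrow libraries, and the EphB receptors to 356, 54.5 and 11.8 CPM in PBMC, BM-MSC and BMAC. The class 3 semaphorins summed to 14.4, 861 and 1711 CPM in that order, and the Slits to 25.6, 320 and 1031 CPM. The netrins differed least between libraries, with sums from 73.5 to 92.4 CPM, though NTN1 among them overlaps another row and its level is uncertain.

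**Figure D1:**
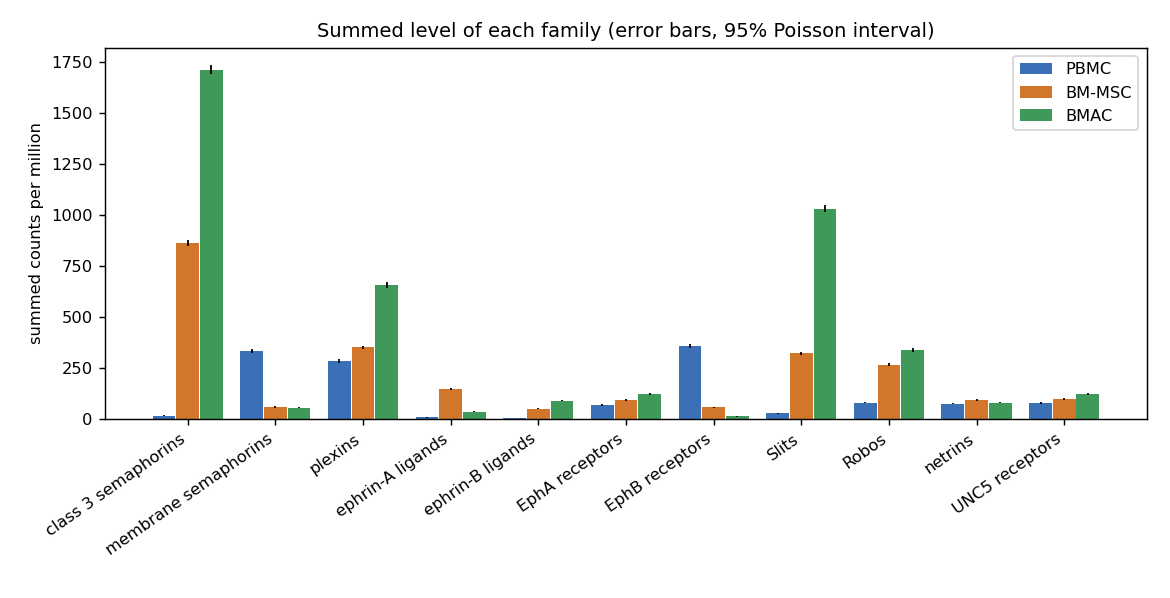
Summed level of each guidance family in PBMC (blue), BM-MSC (orange) and BMAC (green), in CPM on a linear axis from 0; bars are single libraries and error bars the 95% Poisson interval of the summed count. The class 3 semaphorins and the Slits are tallest in BMAC, at 1711 and 1031 CPM, and the membrane semaphorins and EphB receptors in PBMC, at 331 and 356 CPM.

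Set against PBMC, BM-MSC had 14 members higher out of 30 measured (46.7%), where 14.3% of all measured genes were higher. The number of members lower was 4 (13.3%), where 15.7% of all measured genes were lower. The median log2 ratio was 1.08 over the 30 members and -0.16 over all measured genes. A member was measured when either library reached 10 CPM. In this pair 14 members reached it through BM-MSC alone, 5 through PBMC alone and 11 in both libraries, so the count and the median describe these members and support nothing further.

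Set against the same PBMC library, BMAC had 13 of 29 measured members higher (44.8%) against 14.0% of all measured genes, and 5 lower (17.2%) against 12.8%. The median log2 ratio was 1.14 over these members and -0.12 over all measured genes. Here 13 members reached 10 CPM through BMAC alone, 5 through PBMC alone and 11 in both. The 2 comparisons share the PBMC library, so their values for each gene are given side by side and are not independent. Between the marrow libraries the members differed less. Of 27 measured, 2 were higher in BM-MSC (7.41%, with 2.90% of all measured genes) and 1 was higher in BMAC (3.70%, with 3.21%), and the median log2 ratio of BM-MSC over BMAC was -0.29 against -0.09 over all measured genes.

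**Figure D2:**
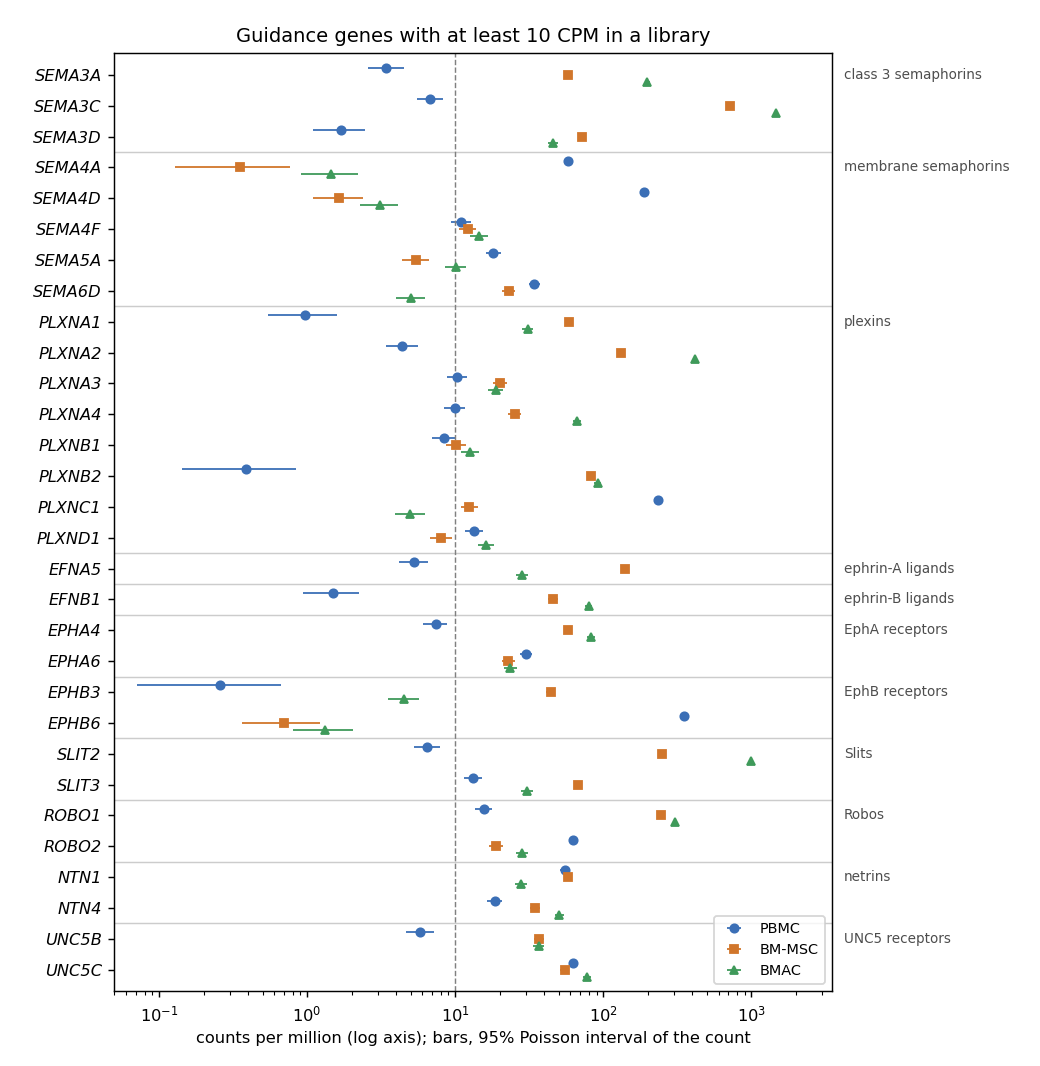
Level of each of the 30 guidance genes with at least 10 CPM in a library (dashed line), in CPM on a log axis, for PBMC (circles), BM-MSC (squares) and BMAC (triangles); points are single libraries and bars the 95% Poisson interval of the count. The circles of EPHB6, PLXNC1, SEMA4D and SEMA4A lie far to the right of the other symbols, and those of SEMA3C, SLIT2, PLXNA2 and PLXNB2 far to the left.

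Class 3 semaphorins are secreted ligands, of which most bind neuropilins and signal through A-type plexins. SEMA3C, a secreted ligand of both neuropilins that is known from heart outflow and vessel development, stood at 6.80 CPM in PBMC, with 715 for BM-MSC and 1456 for BMAC. That was 105-fold (86.9 to 129) and 214-fold (177 to 262) above PBMC. It supplied 83.1% of the family's counts in BM-MSC and 85.1% in BMAC, without regard to transcript length. SEMA3A, the founding collapsing factor for axon tips and a ligand of NRP1 that is also made by bone cells, stood at 3.43 CPM in PBMC against 58.2 in BM-MSC and 198 in BMAC. BM-MSC were 17.0-fold (12.9 to 22.8) and BMAC 57.7-fold (44.0 to 77.3) above PBMC. SEMA3D, a further secreted family member, stood at 1.68, 71.3 and 45.9 CPM in the same order, 42.4-fold (28.8 to 65.1) and 27.3-fold (18.4 to 42.0) above PBMC.

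All 3 were therefore low in PBMC and past the 4-fold rule in both marrow libraries, but the order of the marrow libraries was not the same. SEMA3A and SEMA3C were highest in BMAC and SEMA3D in BM-MSC. The other class 3 genes never reached 10 CPM. SEMA3F, a ligand of NRP2, stood at 0.259 CPM in PBMC, with 6.50 for BM-MSC and 3.50 for BMAC. SEMA3B stood at 0.324, 3.34 and 4.23 CPM. SEMA3E, which binds PLXND1 directly without a neuropilin, stood at 1.94, 5.92 and 3.57 CPM.

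The neuropilins, which are not among the 66 genes, did not move together. NRP1 stood at 55.5 CPM in PBMC against 54.1 in BM-MSC and 147 in BMAC. NRP2 stood at 16.3, 185 and 116 CPM in the same order and was past the 4-fold rule against PBMC in both marrow libraries.

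Plexins are the signalling receptors of semaphorins and act on small GTPases. Among the A-type plexins, which pair with neuropilins, PLXNA2 stood at 4.40 CPM in PBMC, with 131 for BM-MSC and 414 for BMAC. It was 29.8-fold (23.4 to 38.5) and 94.1-fold (74.1 to 121) above PBMC and 3.16-fold (3.01 to 3.32) higher in BMAC than in BM-MSC. PLXNA1 was low in PBMC at 0.971 CPM, and higher in BM-MSC at 59.1 CPM than in BMAC at 30.8 CPM. Its folds over PBMC were 60.8 (36.7 to 109) and 31.7 (19.0 to 57.2). PLXNA4, which serves SEMA3A responses in neurons, stood at 9.97, 25.2 and 66.0 CPM in PBMC, BM-MSC and BMAC. BMAC passed the 4-fold rule at 6.62-fold over PBMC (5.58 to 7.89) and BM-MSC did not, at 2.53-fold (2.10 to 3.06). PLXNA3 differed least of the A-type genes, at 10.4, 20.2 and 18.8 CPM, and its marrow levels were within counting error of each other.

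PLXNB2, a receptor of class 4 semaphorins such as SEMA4C, had 6 counts in PBMC (0.388 CPM) and stood at 83.2 and 91.8 CPM in the marrow libraries BM-MSC and BMAC. It was 214-fold (98.1 to 585) and 236-fold (108 to 645) above PBMC. PLXNB1, the receptor of SEMA4D, showed no such gap. Its row stood at 8.35 CPM in PBMC against 10.1 in BM-MSC and 12.6 in BMAC, and it overlaps the row LOC102162605, which held 44.5, 38.1 and 45.6 CPM, so that reads of the 2 rows may not be told apart. PLXND1, known for its part in vessel patterning, stood at 13.4, 8.03 and 16.2 CPM and differed by no more than 2.02-fold (1.63 to 2.51) between any 2 libraries.

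PLXNC1, the receptor of the membrane-anchored SEMA7A and a plexin found on leukocytes, ran the other way. It stood at 234 CPM in PBMC, with 12.5 for BM-MSC and 4.96 for BMAC, 18.8-fold (16.4 to 21.7) and 47.3-fold (37.6 to 60.2) higher in PBMC. It was the only plexin past the 4-fold rule towards PBMC in either pair. PLXNC1 overlaps CEP83, whose row held 88.9 CPM in PBMC against 53.6 in BM-MSC and 36.4 in BMAC, so the marrow levels of PLXNC1 are uncertain. Its ligand gene SEMA7A was low throughout, at 4.73 CPM in PBMC, with 0.762 for BM-MSC and 0 for BMAC, which is at least 23.8-fold lower in BMAC than in PBMC.

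Of the 13 membrane semaphorins 5 reached 10 CPM, all of them in PBMC, and 4 of these were highest there. SEMA4D, the leukocyte antigen CD100 that is shed from T cells and binds PLXNB1 and CD72, stood at 189 CPM in PBMC against 1.64 in BM-MSC and 3.11 in BMAC. It was 115-fold (79.7 to 174) and 60.9-fold (45.7 to 83.1) higher in PBMC. SEMA4A, a semaphorin of dendritic and lymphoid cells that acts in T cell priming, stood at 57.9, 0.352 and 1.45 CPM in PBMC, BM-MSC and BMAC. It was 165-fold (75.4 to 450) and 39.8-fold (26.1 to 63.8) higher in PBMC. CD72, an inhibitory receptor of B cells, stood at 11.2 CPM in PBMC, with 18.0 for BM-MSC and 7.54 for BMAC and so did not share this pattern. Overlaps of the CD72 row with other rows were not looked up.

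SEMA6D, a membrane ligand of PLXNA1, stood at 34.1 CPM in PBMC against 23.0 in BM-MSC and 5.03 in BMAC. PBMC was past the 4-fold rule over BMAC, at 6.79-fold (5.33 to 8.75), and 1.49-fold (1.30 to 1.70) over BM-MSC. SEMA5A, a transmembrane ligand with thrombospondin repeats, was highest in PBMC at 18.1 CPM, with 5.45 for BM-MSC and 10.1 for BMAC, and passed the rule in no pair. SEMA4F was flat at 10.9, 12.1 and 14.5 CPM. The other 8 membrane semaphorins were below 10 CPM everywhere. Among them SEMA4C stood at 0.453 CPM in PBMC, with 3.87 for BM-MSC and 6.88 for BMAC. It was 15.2-fold (7.11 to 38.7) higher in BMAC than in PBMC, from few counts.

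**Figure D3:**
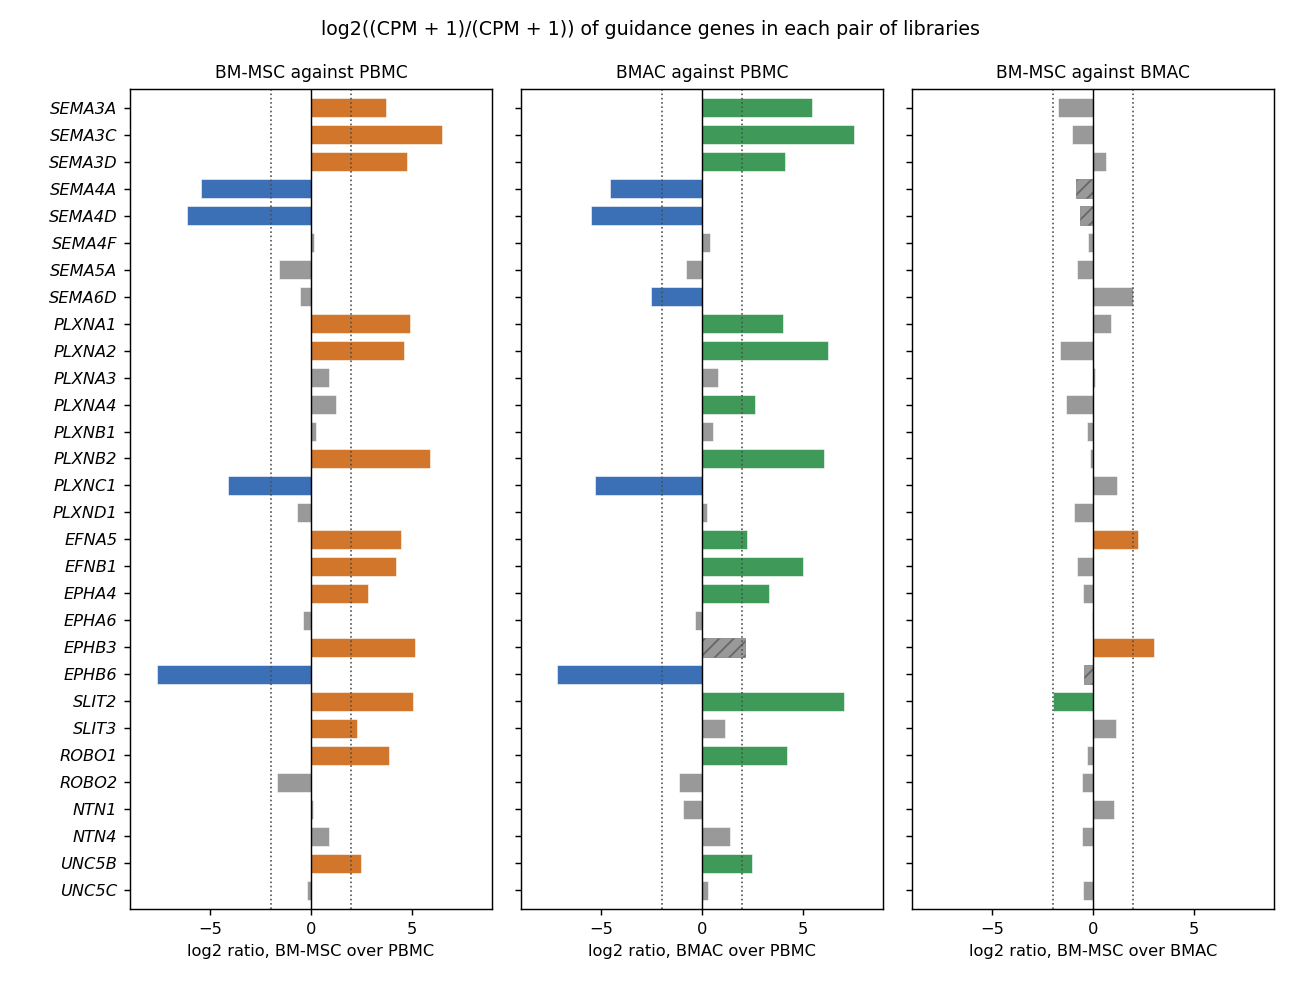
log2((CPM + 1)/(CPM + 1)) of the same 30 genes in the 3 pairs of libraries; bars to the right are higher in the first library named, and dotted lines mark the 4-fold rule at -2 and 2. Coloured bars pass the rule in the colour of the higher library (blue PBMC, orange BM-MSC, green BMAC), grey bars do not, and hatched bars are genes below 10 CPM in both libraries of that pair; 14 and 13 bars point to the marrow library past the rule in the pairs with PBMC, and 3 bars pass it between the marrow libraries.

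Ephrin-A ligands are attached to the membrane by a lipid anchor, and ephrin-B ligands cross it and can signal inward. EFNA5, an ephrin-A that binds most EphA receptors, stood at 5.24 CPM in PBMC against 139 in BM-MSC and 28.2 in BMAC. It was 26.6-fold (21.3 to 33.6) and 5.38-fold (4.24 to 6.92) above PBMC, and 4.93-fold (4.45 to 5.48) higher in BM-MSC than in BMAC. EFNB1, an ephrin-B with a known part in skull and bone formation, had the opposite order in marrow, at 1.49 CPM in PBMC, with 45.8 for BM-MSC and 79.5 for BMAC. It was 30.7-fold (20.3 to 48.8) and 53.4-fold (35.4 to 84.5) above PBMC. EFNB2, the arterial ephrin and partner of EPHB4, came just below 10 CPM in BMAC, at 9.13 CPM, with 2.87 CPM in BM-MSC and 0.453 CPM in PBMC. The other ephrins, EFNA1 to EFNA4 and EFNB3, did not pass 3.90 CPM in any library.

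Eph receptors are tyrosine kinases, apart from EPHB6 and EPHA10, which lack kinase activity. EPHB6, known from T cells, stood at 348 CPM in PBMC against 0.703 in BM-MSC and 1.32 in BMAC. The 5377 counts in PBMC compare with 12 and 20 in the marrow libraries, so PBMC was 495-fold (283 to 959) and 263-fold (170 to 431) higher in CPM. EPHB6 made up 97.7% of the EphB counts of PBMC, without regard to transcript length. No other Eph receptor passed the 4-fold rule towards PBMC.

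EPHB3, an active EphB kinase, was found mainly in BM-MSC. It stood at 0.259 CPM in PBMC, from 4 counts, 44.2 CPM for BM-MSC and 4.50 for BMAC. BM-MSC were 171-fold (66.3 to 628) above PBMC and 9.82-fold (7.66 to 12.8) above BMAC. EPHB4 was below 10 CPM throughout but had the same order, at 1.23, 6.33 and 2.64 CPM. EPHB1 and EPHB2 were below 5 CPM in each library.

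EPHA4, a receptor that accepts ephrins of both classes, stood at 7.38 CPM in PBMC, with 58.2 for BM-MSC and 82.5 for BMAC. It was 7.88-fold (6.49 to 9.65) and 11.2-fold (9.22 to 13.7) above PBMC. EPHA6, in contrast, was within 2-fold across the libraries, at 30.0, 22.8 and 23.6 CPM. Its order in the marrow libraries turned with other scalings. The 7 other EphA genes stayed below 10 CPM, and were therefore not counted. Among them EPHA5 stood at 7.90, 1.11 and 1.19 CPM in PBMC, BM-MSC and BMAC. EPHA3 stood at 5.24, 1.05 and 2.12 CPM in that order. EPHA2, an epithelial and bone-cell Eph, had no count in PBMC against 29 counts for BM-MSC and 20 for BMAC, which were at least 8.75-fold and 6.81-fold higher in CPM. The row of EPHA10 overlaps CDCA8 and its level is uncertain.

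Slits are repulsive secreted ligands that can be cut into fragments. SLIT2 stood at 6.47 CPM in PBMC against 248 in BM-MSC and 997 in BMAC. It was 38.3-fold (31.5 to 47.2) and 154-fold (127 to 189) above PBMC. SLIT3, which osteoclasts and marrow stroma are known to make, had another order, at 13.2, 67.4 and 30.4 CPM. BM-MSC passed the 4-fold rule over PBMC at 5.11-fold (4.40 to 5.95), and BMAC did not at 2.30-fold (1.94 to 2.72). SLIT1, the neural Slit, stood at 5.96, 4.16 and 3.24 CPM.

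ROBO1, a Slit receptor found in many tissues, was also low in PBMC. It stood at 15.5 CPM in PBMC, with 245 for BM-MSC and 305 for BMAC, 15.8-fold (13.8 to 18.0) and 19.6-fold (17.2 to 22.5) above PBMC. ROBO2 ran the other way without passing the rule, at 62.9, 18.8 and 28.3 CPM, so PBMC was 3.34-fold (2.94 to 3.80) above BM-MSC. ROBO1 and ROBO2 are direct neighbours among the coding genes of the pig assembly Sscrofa11.1. ROBO4, the Robo of endothelial cells, had 5 counts in PBMC and 0 in both marrow libraries, and ROBO3 did not pass 1.52 CPM. Of the SRGAP genes, which encode GTPase regulators that bind Robo tails, SRGAP1 stood at 13.0, 155 and 355 CPM in PBMC, BM-MSC and BMAC. SRGAP2 stood at 310, 40.5 and 72.7 CPM in the same order. SRGAP3, at 93.6, 67.6 and 68.5 CPM, passed the 4-fold rule in no pair. SRGAP1 was past the 4-fold rule towards both marrow libraries, and SRGAP2 towards PBMC, in the pair with BMAC only just, at a log2 ratio of -2.08.

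The netrin family differed less between libraries. NTN1, the classical attractant, stood at 54.8 CPM in PBMC against 57.7 in BM-MSC and 27.8 in BMAC, and the first 2 were within counting error. A row of the transfer RNA TRNAE-UUC, which sums several loci, overlaps NTN1 and held 25.8 CPM in PBMC. NTN4, a netrin of basement membranes, stood at 18.5, 34.7 and 50.6 CPM in PBMC, BM-MSC and BMAC, short of the 4-fold rule in each pair. NTN5 had no more than 4 counts in a library.

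UNC5 receptors carry a death domain and mediate repulsion by netrins. UNC5B, which is also found on vessel sprouts, stood at 5.83 CPM in PBMC, with 36.6 for BM-MSC and 36.8 for BMAC. It passed the 4-fold rule at 6.28-fold (5.03 to 7.93) and 6.31-fold (5.04 to 7.97) over PBMC, and the marrow libraries were within counting error. UNC5C was within 2-fold, at 62.3, 54.7 and 77.7 CPM, and its direction between BM-MSC and PBMC turned with TMM and median-of-ratios factors. UNC5D was just below the level used for counting, at 9.52 CPM in PBMC with 3.57 and 4.69 CPM in the marrow libraries, and its row overlaps LOC110257163. UNC5A was below 2 CPM.

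DCC, the attractive netrin receptor, stood at 32.5 CPM in PBMC against 11.5 in BM-MSC and 16.5 in BMAC. Its relative NEO1, neogenin, stood at 4.21, 66.9 and 226 CPM in the same order, 53.7-fold (42.0 to 69.7) higher in BMAC than in PBMC. RGMA, a membrane ligand of neogenin, was highest in BM-MSC, at 26.7 CPM against 0.453 CPM in PBMC and 5.42 CPM in BMAC.

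The 2 marrow libraries were then set against each other. Within 2-fold on the log2 scale with 1 CPM added were 16 of 27 measured members (59.3%), a smaller share than the 80.7% of all measured genes. EPHB3 and EFNA5, at 9.82-fold and 4.93-fold, were the members higher in BM-MSC past the rule. SLIT2 was the member higher in BMAC, at 4.02-fold (3.88 to 4.16), which is just at the limit of 4-fold. SEMA6D fell just short of the rule at 4.57-fold (3.57 to 5.92) higher in BM-MSC, since its lower level of 5.03 CPM is close to the 1 CPM added. With TMM or median-of-ratios factors, or totals without ribosomal and mitochondrial rows, SLIT2 no longer passed the rule and SEMA6D did.

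Below the rule, the members more than 2-fold apart on the same scale fell on both sides. Higher in BMAC were SEMA3A at 3.41-fold (3.17 to 3.66), PLXNA2 at 3.16-fold, PLXNA4 at 2.62-fold (2.34 to 2.94) and SEMA3C at 2.04-fold (1.99 to 2.08). NRP1, which is not a member, was also higher in BMAC, at 2.71-fold. PLXNA1, SEMA3D and NRP2 were higher in BM-MSC by less than 2-fold, at 1.92-fold, 1.55-fold and 1.60-fold. Members more than 2-fold higher in BM-MSC were, beside SEMA6D, PLXNC1 at 2.52-fold (1.93 to 3.32), SLIT3 at 2.22-fold (1.99 to 2.48) and NTN1 at 2.07-fold (1.85 to 2.33). Some markers of contractile cells differed in the same pair. The 6 smooth muscle and pericyte markers summed to 255 CPM in BM-MSC, with 4 of 6 at 10 CPM or more, and to 47.7 CPM in BMAC, with 2 of 6. Of these markers MYH11 stood at 23.2 and 5.55 CPM, CNN1 at 167 and 13.0 CPM, and NOTCH3 at 30.1 and 0.992 CPM. CSPG4 was closer, at 33.7 and 27.0 CPM, and DES stood at 0.0586 and 0 CPM. RGS5 was low and went the other way, at 0.762 and 1.12 CPM. NCAM1, at 119 against 1.45 CPM, also differed in this pair. The part of the cells these genes mark in the guidance gene differences was not tested.

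**Figure D4:**
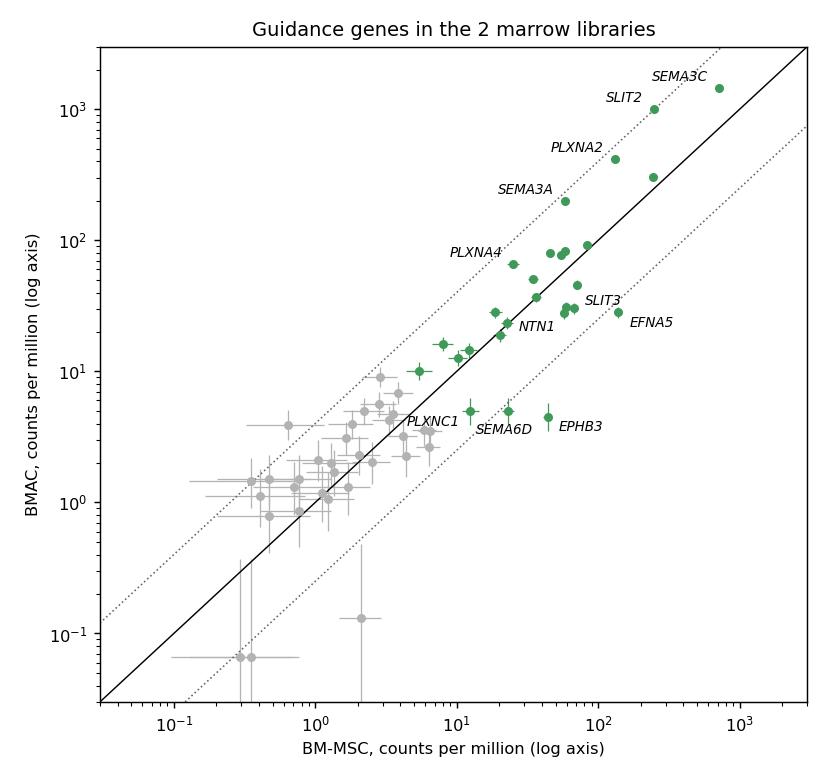
Level of the 59 guidance genes with a count in both marrow libraries, BM-MSC across and BMAC upwards, in CPM on log axes; points are single libraries with 95% Poisson intervals, green where either library reached 10 CPM. The solid line marks equal levels and the dotted lines 4-fold ratios of CPM with nothing added; Of the green points, EFNA5, EPHB3 and SEMA6D lie below the lower dotted line and SLIT2 on the upper one, and 5 genes below 10 CPM in both libraries also lie outside the lines.

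Over all 30 genes at 10 CPM or more in a library, 15 were highest in BMAC, 7 in BM-MSC and 8 in PBMC. The commonest order, found for 13 genes, was BMAC above BM-MSC above PBMC. These orders were not counted over all genes, so both tallies describe the members alone. In 10 of the 13 both steps were beyond counting error, and in SEMA4F, PLXNB1 and UNC5B at least 1 step was not. UNC5B was within counting error between the marrow libraries and turned to BM-MSC with TMM factors, median-of-ratios factors and totals without ribosomal and mitochondrial rows. SEMA4F, PLXNA3, PLXNB1, EPHA6 and UNC5C were within 2-fold in CPM across all 3 libraries. Genes that lie next to each other in the assembly did not always share an order. SEMA3D, SEMA3A and SEMA3E follow each other with no coding gene between, and SEMA3A was highest in BMAC while SEMA3D and SEMA3E were highest in BM-MSC. EFNA1, EFNA3 and EFNA4 are also direct neighbours, and all were low and had their highest level in BM-MSC, at 2.11, 0.352 and 2.52 CPM, that of EFNA3 from 6 counts. Between the marrow libraries EFNA3 and EFNA4 were within counting error.

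Co-receptors, sheddases and effectors of these pathways were described from a list of 66 further genes, of which 64 had a row. Against PBMC, BM-MSC had 21 of 54 measured genes higher (38.9%, beside 14.3% of all measured genes) and 7 lower (13.0%, beside 15.7%), with a median log2 ratio of 1.18 beside -0.16. BMAC had 17 of 52 higher (32.7%, beside 14.0%) and 5 lower (9.62%, beside 12.8%), with a median of 1.12 beside -0.12. In the pair with BM-MSC, 15 listed genes reached 10 CPM through BM-MSC alone, 7 through PBMC alone and 32 in both. In the pair with BMAC, 13 reached it through BMAC alone, 5 through PBMC alone and 34 in both. These counts and medians therefore describe the listed genes and support nothing further. MMP14, a membrane protease that can release SEMA4D, stood at 0.324 CPM in PBMC against 360 in BM-MSC and 395 in BMAC. The other 2 sheddases listed, ADAM10 and ADAM17, stayed within 2-fold in both pairs.

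Among the effectors higher in marrow cells, DPYSL3, a collapsin response mediator protein that acts in semaphorin signalling, stood at 1.29, 110 and 82.8 CPM in PBMC, BM-MSC and BMAC. The heparan sulphate carriers, listed as co-receptors that can bind Slits, did not all share this pattern. GPC1 had 0, 2 and 0 counts, and SDC3 stayed below 10 CPM, at 0.518, 7.21 and 6.35 CPM. SDC1, at 8.42, 23.3 and 34.2 CPM, passed the 4-fold rule in no pair. SDC2, at 12.9, 324 and 208 CPM, and SDC4, at 0.583, 51.9 and 197 CPM, passed it against PBMC in both pairs. On the other side, ABLIM1, an actin-binding protein named for its role in axon guidance, stood at 758 CPM in PBMC, with 5.57 for BM-MSC and 4.76 for BMAC. TIAM1, a Rac activator that Eph receptors can recruit, stood at 211, 8.44 and 9.72 CPM. TYROBP, an adaptor that joins PLXNA1 and TREM2 in myeloid cells, stood at 223, 2.28 and 0.198 CPM. NCK2, an adaptor that binds ephrin-B tails and Eph receptors, was also among the genes furthest towards PBMC in the pair with BMAC, at 189 against 39.7 CPM.

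Between the marrow libraries the shares were near those of all genes. Higher in BM-MSC were 2 of 51 (3.92%, beside 2.90%), CRMP1 at 11.3-fold (8.04 to 16.3) and RGMA at 4.92-fold (3.88 to 6.30). VAV3, an exchange factor that Eph receptors use, was the 1 gene higher in BMAC (1.96%, beside 3.21%). It stood at 391 CPM in PBMC against 4.45 in BM-MSC and 164 in BMAC, so that BMAC were 36.9-fold (29.3 to 47.0) above BM-MSC. Of the 10 leukocyte markers, 1 reached 10 CPM in BMAC and none in BM-MSC. That marker, CD14, stood at 12.9, 3.63 and 17.3 CPM in PBMC, BM-MSC and BMAC, and PTPRC at 2884, 1.11 and 1.85 CPM. The part of leukocytes in the VAV3 difference was not tested.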

How the data were processed

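The RNA was Trizol-extracted and went into Lexogen QuantSeq libraries, per the labels. The deposited files hold raw counts, which are whole numbers with a different total in each library, per gene row. The submitters' processing notes name Bowtie2 and bedtools. Their versions and roles, the build, the annotation and the strand setting were not given in the sources used here. Rows of the same symbol were summed (26965 rows, 26466 symbols; no member had more than 1 row). Counts were divided by the library total.

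Members were matched by symbol and grouped in 11 families. The members, lists and 4-fold rule were chosen with earlier results of these data known. Named were every member with at least 10 CPM in a library, members below that where a family is described, and up to 4 other pathway genes per direction and pair; further pathway genes, and members below 10 CPM, were picked after their values were seen. All 66 members are in the RefSeq table of Sscrofa11.1, used only for names and neighbours. A member that overlaps a row with at least 25% of its count and at least 10 counts in a library is named with that row. Overlaps were not looked up for the other pathway genes. Sequences are not analysed here. Alternatives, run for the members and not for the other pathway genes, were other pseudocounts, floors, size limits and scalings (edgeR 4.0.16 TMM, DESeq2 1.42.0 median-of-ratios). Intervals used scipy 1.17.1. The computation was tested on simulated data. No molecular identifiers are described, so the intervals and bounds speak for counting error alone; 3 counts correspond to 0.176 to 0.198 CPM.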

Additional observations from a re-analysis of the deposited data

How the results depend on the processing

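Under the 5 other pseudocounts and scalings, 16 of 18 member calls in BM-MSC over PBMC held, 15 of 18 in BMAC over PBMC and 2 of 3 in BM-MSC over BMAC. The sign changes concerned genes near equal levels. With TMM and median-of-ratios factors the log2 ratio of UNC5C in BM-MSC over PBMC turned from -0.19 to 0.14 and 0.17. With TMM factors, median-of-ratios factors and totals without ribosomal and mitochondrial rows, the ratio in BM-MSC over BMAC turned from -0.05 to 0.0021, 0.016 and 0.042 for EPHA6, and from -0.0057 to 0.046, 0.060 and 0.086 for UNC5B.

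Counts of members in both pairs with PBMC stayed within 1.5 times under every alternative. With a pseudocount of 5 CPM, SLIT3 and UNC5B in BM-MSC, and EFNA5, SEMA6D and UNC5B in BMAC, no longer passed the rule against PBMC. The medians moved with the floor, that of BM-MSC over BMAC from -0.29 to -0.50 with 50 CPM. In BM-MSC over PBMC the median was 0.25 with a floor of 1 CPM, 3.28 with 50 CPM, 0.14 with no floor and 2.27 without members that overlap another row. In BMAC over PBMC it was 0.63, 2.61, 0.31 and 1.81 in the same order, and 0.96 with a pseudocount of 5 CPM. Other floors and the overlap rule change which members are counted.

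Between the marrow libraries, the number of members higher in BM-MSC was 1 with a floor of 50 CPM, 6 with a size limit of 1 on the log2 scale and 1 with a limit of 3. The number lower in BM-MSC was 5 with the limit of 1, and 0 with the limit of 3, with a pseudocount of 5 CPM, with TMM factors, with median-of-ratios factors and with totals without ribosomal and mitochondrial rows. In these 3 scalings SLIT2 left and SEMA6D joined the differing members, so that 3 of 3 instead of 2 of 3 were higher in BM-MSC. The share over all differing genes went from 47.5% to 50.1%, 51.0% and 52.2%. Over all measured genes, the median log2 ratio moved with TMM and median-of-ratios factors from -0.16 to 0.23 and 0.26 in BM-MSC over PBMC and from -0.12 to 0.21 and 0.22 in BMAC over PBMC. Among all genes past the rule, the share higher in BM-MSC than in PBMC went from 47.6% to 58.5% and 59.5%, while that of members stayed at 77.8%. No paired analysis was possible because each population has 1 library. With 1 library each, variation between animals, cultures or preparations could not be measured.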
